A study of Mus musculus with 3 samples.

Results

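The 26S proteasome is the ATP-driven protease of the cytosol and nucleus. The genes described here encode its subunits, except Psmd5 and Psmd9, which encode assembly chaperones and are counted with the non-ATPase part. The 36 genes were taken from a fixed list of autosomal proteasome genes, out of 20807 autosomal protein-coding genes. By role, 7 were of the alpha ring, 7 of the constitutive beta ring and 3 were immunoproteasome beta subunits. A further 6 were of the ATPase ring and 13 of the non-ATPase part. A gene's poly(A) sites were all listed sites on its strand from its start to 1000 bases past its end, which gave 256 of 178115 sites. Levels are in RPM, the reads at a site scaled to the size of the library. Of the 36 genes, 35 had a site and 34 reached a mean of 1 RPM.

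The cells were embryonic stem (ES) cells of the mouse line F121-9, a hybrid of the Cast and 129 strains. The series has 1 group of 3 libraries, labelled biological replicates 1, 2 and 3, each from cells at passage 14 and each made from 500 ng of RNA, with no treatment named in the labels. The libraries were made by QuantSeq, a form of poly(A) site sequencing (PAS-seq) in which each read is taken to mark the 3′ end of 1 transcript. No conditions could be contrasted within 1 group, and 1 line stands for the cell type.

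The 20S core of the proteasome is a barrel of stacked alpha and beta rings. The outer alpha rings form a gate, and 3 kinds of beta subunit cut proteins inside the barrel. The 19S regulatory particle binds ubiquitin-tagged proteins, removes the ubiquitin, and unfolds the chain with a ring of ATPases that feeds it into the core. Most mammalian pre-mRNAs end at a cleavage site that follows the hexamer AATAAA or its variant ATTAAA, and a gene with several such sites can make 3′ untranslated regions (UTRs) of different lengths.

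The sequences below are of the reference genome, and the alleles of these hybrid cells, which may differ from it, were not read. They show the bases before poly(A) sites of the proteasome genes and any signal found there. Whether a marked signal was the one used was not tested. Each is a stretch of 30 bases of GRCm38 (mm10) on the gene's strand, written 5′ to 3′, that ends at the poly(A) site or, where the signal lay farther away, starts with the signal. Capitals mark the signal found in the 40 bases before the site, where AATAAA was preferred to ATTAAA and both to other hexamers, and a sequence without capitals holds none of the 18 hexamers searched. The first set holds most used sites: those of Psmd3 and Psmd4, which had the highest levels, of Psmd7, which had ATTAAA, of Psma2, which had a rarer hexamer close to the site, of Psmd1, which ended outside its annotated gene, and of Psmb10, the expressed immunoproteasome gene.
Psmd3 most used site, chr11:98695958-98695987, plus strand: aacAATAAAaagttctccagagctccttgt
Psmd4 most used site, chr3:95032704-95032733, minus strand: tttatgatggAATAAAgcttggcaagtttt
Psmd7 most used site, chr8:107580381-107580410, minus strand: tcaaagatacaATTAAAtggcttggttttt
Psma2 most used site, chr13:14625600-14625629, plus strand: taagAGTAAAgtttgcatatacttctttct
Psmd1 most used site, chr1:86139266-86139295, plus strand: AATAAAtatattaaaatctccacattgacc
Psmb10 single site, chr8:105935734-105935763, minus strand: ggtgAATAAAtccgggaaacacaaacactt

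The second set pairs the proximal site (nearer the stop codon) with the distal site of the same terminal exon, in genes that the results on site choice turn on. In Psmb1 and Psmd12 the proximal site had ATTAAA and the distal site AATAAA. In Psmb3 and Psmb2 the proximal site had no hexamer and the distal site had AATAAA. In Psmd14, Psmd11 and Psmd8 both sites had AATAAA.
Psmb1 proximal, chr17:15475960-15475989, minus strand: aagtttgttttATTAAAaagaatgtaaagt
Psmb1 distal, chr17:15475706-15475735, minus strand: AATAAAaccactaatataatttctttttct
Psmd12 proximal, chr11:107497772-107497801, plus strand: ATTAAAaaagaaagactgttttcatggtgt
Psmd12 distal, chr11:107498009-107498038, plus strand: tAATAAAaacaggacatgtgttagctcctg
Psmb3 proximal, chr11:97713435-97713464, plus strand: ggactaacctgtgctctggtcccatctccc
Psmb3 distal, chr11:97713471-97713500, plus strand: ttttctttttAATAAAattgcctttctttc
Psmb2 proximal, chr4:126709606-126709635, plus strand: actcaccagggaacttttttgatgggctca
Psmb2 distal, chr4:126709686-126709715, plus strand: caaAATAAAgctgaatatagctaaattgat
Psmd14 proximal, chr2:61800070-61800099, plus strand: tatttaAATAAAgtgacgtagagagctgtc
Psmd14 distal, chr2:61800346-61800375, plus strand: tgcttacaaAATAAAatacatttacaatcc
Psmd11 proximal, chr11:80471936-80471965, plus strand: attctaAATAAAaggaaaaaggcttacact
Psmd11 distal, chr11:80473220-80473249, plus strand: ttccAATAAAataattttttttttcaaaag
Psmd8 proximal, chr7:29174531-29174560, minus strand: ctggccttcAATAAAggcagattaacctct
Psmd8 distal, chr7:29174188-29174217, minus strand: agccctctgtAATAAAtggtatgaatcctg

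Reads at listed sites numbered 10147672, 13513327 and 13040620 in replicates 1, 2 and 3, of which the proteasome genes held 102149, 139862 and 150153. Replicate 3 had 216 reads outside the 19 autosomes, against 821582 and 1012989 in replicates 1 and 2, so its autosomal RPM values were shifted up. Replicate 3 gave the highest value for 20 of 34 proteasome genes, and for 17 after scaling to autosomal reads. Among all genes at 1 RPM or more the shares were 48.9% and 37.2%. Of the 256 sites, 92 had reads in every library and 128 in 1 library only, and the former held 99.6% of the proteasome reads. Of 8 pluripotency markers 7 reached 10 RPM, the exception being Dppa5a. The 50 bases before the annotated end of Dppa5a occur at 3 places in the genome, and how such reads were treated is not known. Of the other markers, 0 of 4 endoderm, 2 of 6 fibroblast (Thy1 and Col6a1) and 1 of 5 immune cell markers (Laptm5, 140 RPM) reached 10 RPM. Separate cultures are not named in the labels, and p-values then measure only the spread among these libraries, which may be technical. Fewer cells and less RNA per cell cannot be told apart in bulk RNA.

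Proteasome genes were read at high levels in all 3 libraries. Their summed level was 9769 ± 792 RPM (SD, n = 3), and 11219 ± 282 RPM after scaling to autosomal reads. The median gene had 169 ± 13.8 RPM, against a median of 18.7 RPM over the 12190 autosomal protein-coding genes at 1 RPM or more. Of the 36 genes, 34 had a mean of at least 10 RPM and 24 at least 100 RPM, levels that 63.8% and 13.8% of those 12190 genes reached. Over all 20807 autosomal protein-coding genes, without the minimum of 1 RPM, the shares were 37.4% and 8.06%. Proteasome genes varied between libraries about as much as other genes of like level. The median coefficient of variation was 20.3% for the 10 members between 10 and 100 RPM and 11.4% for the 15 members at 300 RPM or more, beside 19.7% and 10.1% over all genes.

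**Figure D1:**
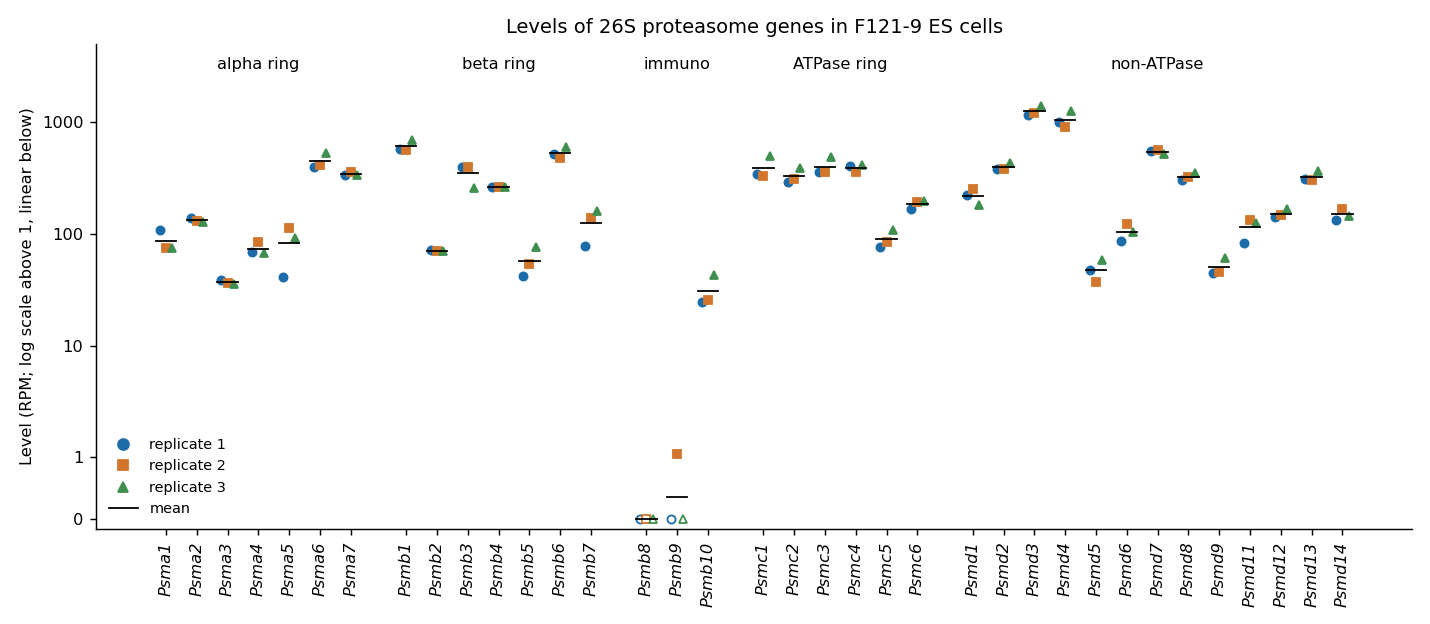
Level of each of the 36 proteasome genes in RPM (log scale above 1, linear below) by role, with 1 point per library and a bar at the mean; open points are at 0. All genes but Psmb8 and Psmb9 lie above 20 RPM in every library, and Psmd3 and Psmd4 lie highest.

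In the alpha ring, whose subunits form the gate of the core, all 7 genes were read in every library, over a 12.2-fold range of mean levels. Psma6 had 399, 415 and 532 RPM in replicates 1, 2 and 3. Psma7 had 338, 357 and 334 RPM, and Psma2 140, 130 and 127 RPM. The lowest was Psma3, with 38.7, 36.01 and 35.5 RPM, below every library of each other alpha subunit gene. Psma4 had 69.4, 84.8 and 67.7 RPM. Psma5 had the widest relative spread of the ring, with 41.2 RPM in replicate 1 against 113 and 92.4 RPM in replicates 2 and 3. The libraries of Psma1, Psma4 and Psma5, with means of 85.9, 74.0 and 82.2 RPM, overlapped, so these genes were not ordered.

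In the beta ring, Psmb1 and Psmb6 were highest. Psmb1, a non-catalytic subunit, had 574, 557 and 694 RPM. Psmb6, which carries the caspase-like activity, had 520, 476 and 596 RPM, so the libraries of these genes overlapped. The other catalytic genes were lower in every library. Psmb7, which carries the trypsin-like activity, had 78.3, 140 and 159 RPM. Psmb5, which carries the chymotrypsin-like activity and is the main target of proteasome inhibitor drugs, had 41.7, 53.2 and 76.1 RPM, the lowest mean of the ring (57.0 ± 17.5 RPM). Among the non-catalytic subunits, Psmb3 had 400, 398 and 256 RPM, with replicate 3 below the others. Psmb4 had 264, 264 and 264 RPM and Psmb2 71.8, 70.1 and 70.8 RPM, the closest agreement between libraries among the members, on a scale on which replicate 3 was shifted up. The 14 genes of the core, whose products stand in equal number in the particle, spanned a 16.6-fold range of mean levels, from Psma3 to Psmb1.

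The immunoproteasome replaces the catalytic beta subunits by Psmb8, Psmb9 and Psmb10, mostly in immune cells and after interferon. In these ES cells Psmb10 was read in every library and the other immunoproteasome genes hardly at all. Psmb8, the counterpart of Psmb5, had 0 reads in each library, where 3 reads would have been 0.271, 0.202 and 0.213 RPM, against 2323 reads for Psmb5, which makes it at least 774-fold lower when 3 reads over the group are taken as the floor. Psmb9, the counterpart of Psmb6, had 16 reads, all in replicate 2, against 21229 for Psmb6. Psmb10, the counterpart of Psmb7, had 24.8, 25.7 and 42.8 RPM and was 4.04-fold lower than Psmb7. The log2 difference of Psmb10 from Psmb7 was -1.66, -2.44 and -1.89 in the libraries, with a mean of -1.99 ± 0.40 (SD, n = 3). Each immunoproteasome gene was lower than its counterpart in 3 of 3 libraries, and the exact two-sided sign-flip test gave p = 0.25 for every pair (0.25 adjusted over the 3 pairs), the smallest value that 3 libraries allow. With 0.05 RPM added to both levels, the log2 differences were -10.1 ± 0.44 for Psmb8 and -11.9 ± 2.73 for Psmb9, and these sizes depend on that added value.

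Of 8 other genes of antigen presentation, 3 had 10 RPM or more, a share close to that of all 20807 autosomal protein-coding genes (37.4%). Among the 12190 of these at 1 RPM or more the share was 63.8%. Tapbp, a chaperone of peptide loading, had 91.3 ± 12.3 RPM, and the class I gene H2-K1 had 37.9 ± 0.86 RPM. The transporter gene Tap2 had 0.81 RPM, from replicate 2 only, and the class I activator Nlrc5 had 0.90 RPM. The immune cell markers Ptprc, Cd74, Cd52 and Coro1a had means of 1.11, 3.49, 3.77 and 1.19 RPM, and Laptm5 140 RPM. Their part in the Psmb10 level was not tested.

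The 6 ATPase genes, whose products form the unfolding ring, had the narrowest range of the roles with 6 or more genes, 4.46-fold between the highest and the lowest mean. Psmc3 had 356, 360 and 484 RPM, Psmc4 409, 358 and 409 RPM, and Psmc1 345, 331 and 500 RPM. These libraries overlapped. Psmc2 had 290, 310 and 385 RPM. Psmc6 and Psmc5 were lower in every library, with 167, 192 and 197 RPM for Psmc6 and 76.9, 84.3 and 108 RPM for Psmc5.

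The non-ATPase genes held both the highest member and some of the lowest. Psmd3, a scaffold subunit of the lid, had 1169, 1205 and 1405 RPM. Psmd4, a receptor for ubiquitin chains, had 997, 897 and 1261 RPM. Psmd7, the partner of the deubiquitinase Psmd14 in the lid, had 551, 567 and 516 RPM, and Psmd14 itself had 134, 168 and 145 RPM. The lowest were Psmd5 with 47.6, 37.4 and 58.9 RPM, Psmd9 with 44.7, 45.4 and 60.9 RPM, and Psmd6 with 85.8, 123 and 105 RPM. Psmd5 and Psmd9 encode chaperones that help build the ATPase ring and leave the finished particle, while Psmd6 is a lid subunit. The other non-ATPase genes lay between 114 RPM (Psmd11) and 398 RPM (Psmd2, the scaffold that binds shuttle proteins) on the mean. Psmd1, the other large scaffold, had 220, 252 and 181 RPM, but 56.0 ± 4.19 RPM when each site was given to 1 gene only and intronic sites were left out, because its most used site lies in a neighbour's intron and was given to that gene.

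Genes that serve the proteasome were mostly read as well. For comparison, 63.8% of autosomal protein-coding genes at 1 RPM or more, and 37.4% of all 20807, reached 10 RPM. All 6 assembly chaperone genes reached 10 RPM, led by Pomp, which matures the core (370 ± 54.3 RPM, SD, n = 3), and Psmg4 (115 ± 16.5 RPM). The lowest was Psmg2 with 29.5 ± 7.79 RPM, and X-linked Psmd10 had 48.3 RPM over replicates 1 and 2. Of the further subunits, Sem1 had 116, 175 and 133 RPM and the ubiquitin receptor Adrm1 22.8 ± 13.4 RPM. Among activators, Psme4 had 243 ± 18.9 RPM and Psme3 221 ± 35.3 RPM, the inhibitor Psmf1 had 93.5 ± 6.22 RPM, and the interferon-induced Psme1 had 69.5 ± 12.1 RPM. Its partner Psme2 was listed at 0, and the 50 bases before its annotated end occur at 2 places in the genome.

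Of 10 bound enzymes and ubiquitin shuttles, 9 reached 10 RPM, beside 63.8% of autosomal protein-coding genes at 1 RPM or more and 37.4% of all 20807. The shuttles Rad23b and Ubqln1 had 1039 ± 169 and 307 ± 9.62 RPM, while Ubqln4 had 0.51 RPM and Ecpas 34.9 ± 9.94 RPM. The unfoldase Vcp had 76.2 ± 11.7 RPM, with its cofactors Ufd1 and Nploc4 at 72.4 and 56.7 RPM. Nfe2l1, the transcription factor that raises proteasome genes when the proteasome is inhibited, had 161 ± 32.8 RPM, and its relative Nfe2l2 15.4, 29.3 and 29.3 RPM. The testis subunit gene Psma8 had 20.1 ± 3.94 RPM, and the thymus subunit gene Psmb11 had reads in replicate 2 only (0.94 RPM there).

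Proteasome mRNAs ended close to their stop codons. The distance from the stop codon to the most used site, which is the 3′ UTR length without introns at that site, had a median of 121 bases (quartiles 78.3 and 240) over the 34 genes. Over the 11202 genes with a value, out of 12190 at 1 RPM or more, the median was 665 bases, and over 1619 genes at 100 RPM or more it was 404 bases. Of the 34 proteasome genes, 24 (70.6%) had under 200 bases, against 18.0% of all genes and 29.1% of those at 100 RPM or more. Only Psmd11, at 1540 bases, had over 1000 among the 34, against 37.3% of all genes. These are descriptions of a list, and no test of the difference was made.

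**Figure D2:**
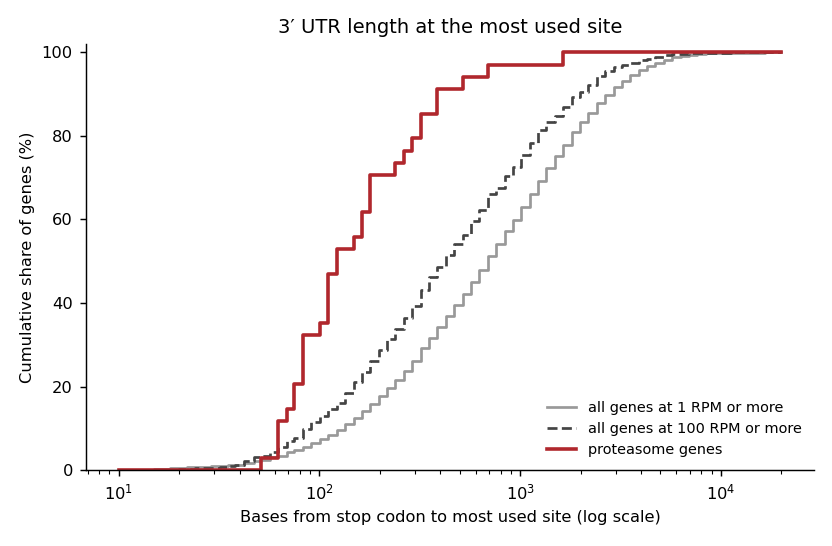
Cumulative share of genes (%) against the distance from the stop codon to the most used poly(A) site (bases, log scale). The curve of the 34 proteasome genes, with a median of 121 bases, lies left of all genes at 1 RPM or more (665 bases) and of those at 100 RPM or more (404 bases) over most of its length.

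Among the roles with 6 or more genes, the median 3′ UTR was shortest in the beta and ATPase rings. The 7 beta ring genes had a median of 72 bases, from 49 in Psmb2 to 140 in Psmb7. The 6 ATPase genes had a median of 89.5 bases, from 68 in Psmc3 to 172 in Psmc1. The alpha ring genes lay between 105 (Psma7) and 292 bases (Psma1), with a median of 161. The 13 non-ATPase genes had a median of 287 bases and the widest range, from 76 in Psmd12 to 1540 in Psmd11, with 641 in Psmd9 and 503 in Psmd7. Psmb10 had 60 bases.

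**Figure D3:**
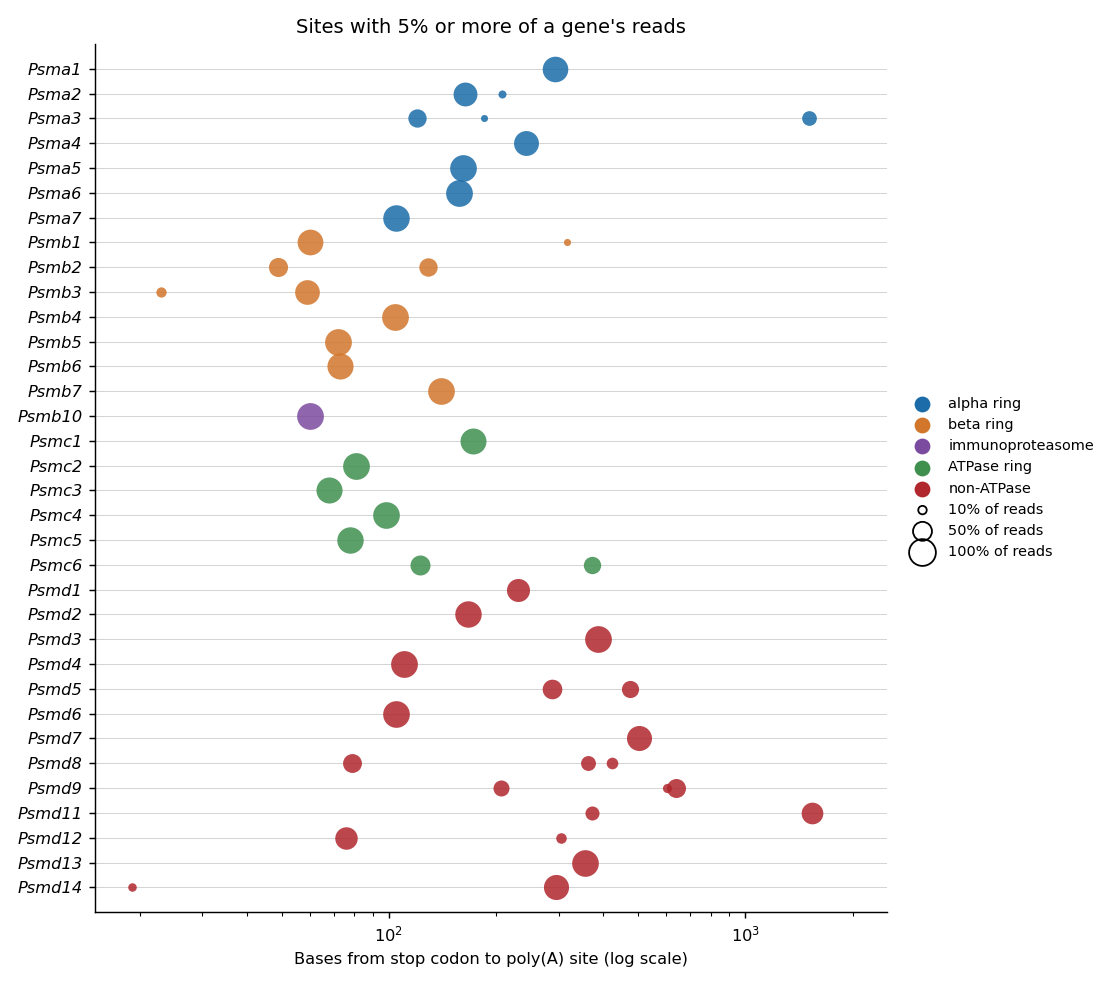
Poly(A) sites that hold at least 5% of a gene's reads, by distance from the stop codon (bases, log scale); the area of a point is the site's share of the gene's mean level and the colour is the role. Sites before the stop codon, in Psma1, Psma4, Psmd1, Psmd7 and Psmd12, are not drawn. Most beta ring and ATPase genes have 1 large point under 200 bases, while Psma3 and Psmd11 also have a site past 1000 bases.

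The canonical signal AATAAA preceded most proteasome ends. In the deposited hexamer lists, which reach 60 bases upstream, sites with AATAAA held 83.0% ± 0.71 of proteasome reads (SD, n = 3), against 70.0% ± 0.22 of the reads of all genes at 1 RPM or more. Sites with ATTAAA but no AATAAA held 13.7% ± 0.44, sites with another hexamer 1.22% ± 0.24, and sites with none 2.10% ± 0.30. The corresponding shares over all genes were 14.7%, 11.1% and 4.16%. Counted by gene, the most used site had AATAAA in 29 of 34 (85.3%), against 65.5% of all genes and 71.4% of genes at 100 RPM or more. With a search of the nearest 40 bases these shares were 79.4%, 63.6% and 69.0%.

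Psmb1, Psmd7, Psma3 and Psmd12 had ATTAAA, without AATAAA, at their most used site. In Psma2 the deposited AATAAA lay 58 bases before the site, and the hexamer at the usual distance was AGTAAA, 25 bases before it. Psmc5 had the same pattern, with the deposited AATAAA 43 bases and GATAAA 25 bases before its most used site. Psmb2 alone among the 34 had no listed hexamer at its most used site, which held 51.1% of its reads, and AATAAA stood before its other large site, with 47.3%.

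Of proteasome reads, 97.1% ± 0.39 lay in terminal exons, against 93.1% ± 0.33 for all genes at 1 RPM or more. The most used site lay in a terminal exon in 33 of 34 genes. The exception was Psmd1, whose most used site lay 151 bases past its annotated end, in an intron of the overlapping gene Gm21972. That site had 168, 195 and 121 RPM and 74.2% of the reads counted for Psmd1. The other exons and introns of proteasome genes held 0.93% ± 0.16 and 0.24% ± 0.078 of reads, against 1.49% and 4.37% over all genes. These contrasts depend on how sites are placed. By the authors' region code the intron share was 1.85% for proteasome genes and 1.55% for all genes, which turns the contrast round, and the terminal exon shares were 97.2% and 96.4%. The most used Psmd1 site is coded there as intronic. A few minor sites lay in other exons or before the stop codon and were followed by A-rich sequence, from which priming can start inside a transcript. They included a Psmd7 site with 53.9, 34.6 and 58.5 RPM (9.0% of its reads), a Psmc3 site with 12.4, 15.01 and 32.4 RPM and a Psmd1 site with 15.3, 16.0 and 20.2 RPM. Whether these reads came from priming at such sequence was not tested. Other sites of this kind with at least 5% of a gene's reads were not followed by A-rich sequence. They were a Psmd1 site with 31.9, 37.4 and 36.4 RPM (16.2% of its reads), a Psmd12 site with 13.7, 13.7 and 16.0 RPM (9.54%), a Psma1 site with 9.56, 3.70 and 3.63 RPM (6.55%) and the Psma4 site described with the distal calls (7.86%).

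Near-identical copies can hide or split the reads of a gene. For all 36 genes the 50 bases before the most used site (for Psmb8, before the annotated end) occur once in the genome as an exact match. Copies with mismatches were not searched for, so loss of reads to near-identical copies was not tested. Of 4 annotated proteasome pseudogenes named after Psmb5, Psmb6 and Psmb7, Psmb7-ps2 had 0.022 RPM and the others had 0.

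Many proteasome genes had no choice of site to test, since 18 of 34 proteasome genes had a single site with at least 5% of reads. The share was 52.9%, against 40.01% of all genes at 1 RPM or more and 58.3% of those at 100 RPM or more. Among the ATPase genes 5 of 6 had a single such site. In Psmd4, for example, the most used site held over 99% of reads, and in Psmb5 and Psmb10 it held all.

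Site choice was tested in the genes with at least 50 reads and at least 2 such sites in 1 terminal exon. The test (limma, Benjamini-Hochberg over 5130 genes) compared the most distal with the most proximal site within each library, and a call needed an adjusted p under 0.05 and a 2-fold ratio. Of the 14 proteasome genes tested, 5 were called distal, where 31.2% of all genes tested were, and 4 proximal, where 12.8% of all genes tested were. Distal over proximal, the log2 ratio had a median of -0.26 in the proteasome genes and 1.34 in all genes. The pairs were also closer together, with a median distance of 266 bases against 861. No test set these counts against those of other genes.

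The counts moved with the fit. EdgeR on the recovered reads gave 5 proteasome genes distal and 4 proximal, beside 26.7% and 11.5% of all genes. Without a trend in limma's variance prior (its default, which the planned design implied) there were 4 and 3, beside 19.3% and 7.86%. With the 2 most used sites there were 5 and 3 (30.2% and 13.5% of all genes), and with sites placed by position alone 3 and 5 of 13 tested (29.1% and 12.6%).

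**Figure D4:**
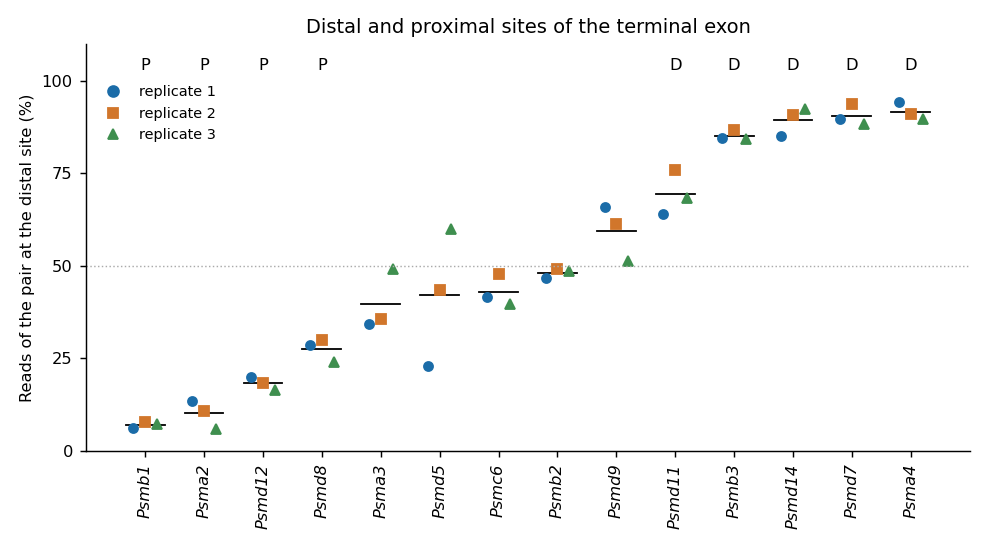
Share of the reads of a pair at the distal site (%) in the 14 proteasome genes tested, with 1 point per library and a bar at the mean; D and P mark genes called distal and proximal, and the dotted line is at 50%. The libraries of called genes all lie on 1 side of the line, and those of Psmd5 lie on both.

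The proximal calls were led by Psmb1. Its proximal site, 60 bases from the stop codon and with ATTAAA, had 534, 513 and 638 RPM, while the distal site, 256 bases farther and with AATAAA, had 35.6, 42.9 and 50.7 RPM. The log2 ratio was -3.71 (SE 0.14, adjusted p = 9.4e-06), lower at the distal site in 3 of 3 libraries. Psmd12, a lid subunit gene, had the same order of signals, with 93.5, 105 and 122 RPM at the proximal ATTAAA site and 23.4, 23.8 and 23.8 RPM at the distal AATAAA site (log2 ratio -2.16, SE 0.21, adjusted p = 0.00019). In both genes the variant signal thus stood at the more used site. The Psmd12 ATTAAA lay 37 bases before that site, with AAGAAA nearer, at 30 bases. At the distal Psmb1 site AATAAA lay 31 bases before it, with AATATA nearer, at 19 bases. Which hexamer was used was not tested. Psmd9, not called, had the same order of signals, but its distal site held 65.9%, 61.3% and 51.4% of the pair's reads. In Psma3, also not called, that share was 34.4%, 35.8% and 49.0%, and the distal AATAAA lay 57 bases before its site.

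In Psma2 the sites were 44 bases apart. The proximal site had 105, 104 and 107 RPM and the distal site 16.5, 12.5 and 6.75 RPM, a log2 ratio of -3.23 (SE 0.29, adjusted p = 0.00015). Psmd8, a lid subunit gene, had 157, 153 and 177 RPM at the proximal site and 62.5, 65.3 and 56.1 RPM at the distal site, a log2 ratio of -1.40 (SE 0.18, adjusted p = 0.00075). A site between them, with ATTAAA, had 84.3, 101 and 117 RPM, and against it the ratio was under 2-fold (log2 -0.70), so the call was lost. It was also lost without the variance trend (adjusted p = 0.070).

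Of the distal calls, those of Psmd7 and Psma4 compared the gene's main 3′ end with a site before the stop codon. In Psmd7 the distal site had 470, 518 and 440 RPM and the proximal site is the A-rich one above (log2 ratio 3.31, SE 0.21, adjusted p = 2.9e-05). In Psma4 the distal site had 61.4, 75.1 and 55.3 RPM and the proximal site 3.79, 7.40 and 6.26 RPM (log2 ratio 3.49, SE 0.29, adjusted p = 0.00011). By site position alone the main site of Psma4, 2 bases past the annotated end, was left out and the ratio turned to -2.52 (adjusted p = 0.22).

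The other distal calls lay between sites of the 3′ UTR. Psmd14 had 111, 151 and 131 RPM at the distal site and 19.5, 15.3 and 10.8 RPM at the proximal site, 19 bases from the stop codon (log2 ratio 3.14, SE 0.26, adjusted p = 9.6e-05). Psmb3 had 338, 345 and 216 RPM at the distal site, which has AATAAA, and 61.9, 53.0 and 40.4 RPM at a site 36 bases nearer the stop codon, which has no hexamer (log2 ratio 2.52, SE 0.15, adjusted p = 2.7e-05). Replicate 3 was lower than the others at both Psmb3 sites.

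Psmd11, whose product clamps the regulatory particle to the core, had the pair farthest apart among the called genes, at 1284 bases. The distal site had 47.0, 96.9 and 80.5 RPM and the proximal site 26.3, 30.9 and 37.1 RPM, so the distal site was higher in 3 of 3 libraries. The log2 ratio was 1.20 (SE 0.25, adjusted p = 0.0071). It fell to 0.98 without replicate 2 (adjusted p = 0.070), had an adjusted p of 0.10 without the variance trend, and turned to -2.97 (adjusted p = 0.0010) by site position alone, which leaves out the distal site.

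The remaining 5 pairs were not called. In Psmc6 the sites had log2 ratio -0.41 (SE 0.19, adjusted p = 0.12), and in Psmb2 -0.11 (SE 0.26, adjusted p = 0.75). Psma3 had a pair 1390 bases apart with log2 ratio -0.61 (SE 0.45, adjusted p = 0.30), and Psmd9 had 0.56 (SE 0.36, adjusted p = 0.23). In Psmd5 the distal share was 22.8%, 43.4% and 59.9% in replicates 1, 2 and 3, the widest spread of the 14 genes. Its log2 ratio was -0.52 (SE 0.48, adjusted p = 0.40), and 0.096 without replicate 1 (adjusted p = 0.90).

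Promoters were matched in RefSeq (GRCm38.p6) for 30 of the 36 genes, with 1 promoter per gene, and searched on both strands for 3 short motifs, whose matches may overlap. TGACNNNGC, the core of the antioxidant response element through which Nfe2l1 acts, was found in 5 of 30 (16.7%), in Psmd9, Psmb6, Psmd12, Psmc6 and Psmb5, against 13.5% of 15687 promoters. CCATNTT, the core of the YY1 motif, was found in 8 (26.7%), against 15.2%, and CCAAT in 11 (36.7%), against 38.4%. In Psmb6, Psmc5, Psmc1 and Psma2 the only CCATNTT match lay past the transcription start, on the opposite strand. A match is a description of the letters in this window only.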

How the data were processed

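PAS-seq (QuantSeq) was applied to 3 libraries of F121-9 cells, which form 1 group. The authors deposited 1 list of 178115 poly(A) sites per library, with a level per site in RPM, a unit inferred from the values. Their text files name mm10 and GENCODE M21. For the aligner, the site caller and the treatment of reads that map to several places, nothing is given in the sources used here. All values (100%) were whole multiples of 1 read within 0.01 reads, which gave totals of 11085428, 14855484 and 14064461 reads. Without molecular identifiers, floors in reads cover counting error only. No library was a copy of another, since reads per gene differed between libraries by 20.7 to 29.3 times the chi-square of counting error.

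Gene levels were RPM summed over sites, with no scaling by length because 1 read was taken to mark 1 transcript end. Repeated reads of 1 molecule and priming inside a transcript would break this assumption and were not corrected for. Means and SDs are over the 3 libraries. Genes were placed with GENCODE M21 in Python 3.11.15. A-rich sites had 12 or more A, or 6 in a row, in the next 20 bases. Signals were the 18 hexamers of the deposited lists.

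Tandem sites were tested with limma 3.58.1 on log2(distal RPM + 0.05) minus log2(proximal RPM + 0.05), fitted on all 5130 autosomal genes with a pair. This scale understates the ratio of rarely used sites. The planned design named limma and no trend in its variance prior. On simulated pairs limma's default prior recovered none of the changed genes. Therefore 4 priors were compared on the simulated data alone, before calls on the real pairs were made. A trend on the mean level of the 2 sites was kept. The simulated spread was set by the number of reads, with no differences between genes of like read number, which favours such a trend. The simulation therefore cannot decide which prior suits the real pairs, where the default prior called 992 genes distal and 403 proximal. The trend gives more calls than the default prior, whose counts are given in the closing section. The terminal exon of a pair (the one with the most reads, by overlap of the site's interval) was defined after the sites of the proteasome genes were seen. EdgeR 4.0.16 and DESeq2 1.42.0 were run on the recovered reads as alternatives.

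The genes, the companion lists and the motifs were chosen with earlier results of these data known. Genes named with values were the 3 highest and 3 lowest of each role, those called by the tandem test, and those whose most used site lacked both main signals or lay outside the terminal exon. Others were added after their values were seen. For companion lists, the 2 highest and 2 lowest were named. A planned comparison of protein sequences was not made. The sequence at 1 further site is not reported here.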

Additional observations from a re-analysis of the deposited data

How the results depend on the processing

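Of 136 alternative values for the main results, 115 were counted as unchanged. For counts of calls this meant staying within a fixed fold range of the main count, whichever genes were called. The fall from 5 distal and 4 proximal proteasome calls to 4 and 3 without the variance trend was thus counted as unchanged. Other kinds of value were unchanged when they kept their direction and side of the threshold or stayed within the spread of the libraries. Without the trend in limma's variance prior, the default that the planned design implied and that was added as an alternative once the trend was adopted, 992 genes were called distal and 403 proximal, against 1601 and 659. Among the proteasome genes 4 and 3 calls were left, with Psmd11 and Psmd8 lost. Leaving out 1 library gave 983 to 1331 distal calls. With a site minimum of 10%, 880 (21.9%) of 4012 genes were called distal and 452 (11.3%) proximal, with 3 and 2 of 10 proteasome genes. With 1%, 3288 (46.5%) of 7076 were called distal and 825 (11.7%) proximal, with 5 and 8 of 17 proteasome genes, Psmd5 among the proximal ones (log2 ratio -5.61). By site position alone, an alternative chosen after seeing the data, 3 proteasome genes were distal, and the ratios of Psma4 and Psmd11 reversed to -2.52 and -2.97 because their main distal sites were left out. Leaving out 1 library moved that of Psmd5 between -1.07 (without replicate 3) and 0.096 (without replicate 1), a reversal. Scaling to autosomal reads raised the summed level to 11219 ± 282 RPM and the median gene to 195 ± 16.8 RPM (SD). Giving each site to 1 gene with intronic sites left out put the median at 152 RPM. Within 40 bases, sites with AATAAA held 80.9% of reads, with another hexamer 2.49% and with none 2.99%. Counted over the most used sites of the 35 genes with a site, the shares were 85.7% for AATAAA, 11.4% for ATTAAA, 0% for another hexamer and 2.86% for none. By the authors' region code introns held 1.85% (1.55% over all genes) and downstream sequence 0.058% of reads, mainly because the Psmd1 site is coded there as intronic. No paired analysis was possible because there is 1 group, and the library is already the block of every ratio.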
